A study of Mus musculus with 8 samples.

Results

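The 45 genes described here encode chemokines (31 ligands) and chemokine receptors (14), out of 18193 genes measured on the Affymetrix Mouse Genome 430 2.0 array. A gene was taken when its symbol is Ccl, Cxcl, Ccr or Cxcr followed by a number, or is Cx3cl1, and when a probe set is annotated to that gene alone. Each gene was read from its brightest such probe set over the 8 arrays. Messenger RNA was compared in 3 wild-type mouse cell types: primary embryonic fibroblasts (MEF, 2 arrays), neural precursor cells (NPC; 3 arrays) and, with 3 arrays, embryonic stem (ES) cells. MEF were grown in DMEM with 10% fetal bovine serum. NPC were derived in culture from ES cells through embryoid bodies (4 days) and selection in ITSFn medium (5 to 7 days), and were then kept in FGF2 and what the labels call EGF2. ES cells were of the V6.5 line, grown in DMEM with 15% FCS and leukemia-inhibiting factor on irradiated MEF and then passaged on 0.2% gelatin without feeders. No group carried a deletion or a drug treatment, and the labels give neither the age nor the number of the embryos behind the MEF. Nothing in the labels says that replicate arrays stand for separate cultures, and p-values therefore cover only array-to-array spread, possibly technical.

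Chemokines are small secreted proteins, named CC, CXC or CX3C by the spacing of their first cysteines, that direct the migration of cells carrying the matching G protein-coupled receptors. Inflammatory chemokines such as Ccl2 and Cxcl1 are induced through NF-kappaB, a transcription factor that binds kappaB sites, and attract monocytes or neutrophils. Others are homeostatic: Cxcl12 retains haematopoietic progenitors and guides neural and germ cell migration through its receptor Cxcr4, and Ccl25 draws thymocytes through Ccr9. Fibroblasts are a known source of many chemokine ligands, whereas most receptors are expressed on leukocytes.

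Values are log2(intensity + 16) after quantile normalization, a scale on which 4 is the lowest possible value, so that folds of dim genes are understated. A gene was called when limma's adjusted p was under 0.05 and the log2 difference was at least 1 in size. All 45 genes entered the tests, since no filter on low values was set. They lay between 4.02 and 10.32 on single arrays, with array medians of 5.28 and 5.20 in MEF, 4.61, 4.42 and 4.55 in NPC and 4.63, 4.55 and 4.70 in ES cells. Receptors never passed 6.22. Markers of the labelled cell types mostly fitted the labels. Summed normalised intensity of 4 fibroblast genes was 20300 to 20500 in MEF, 51.4 to 68.7 in NPC and 290 to 302 in ES cells. For 3 ES markers it was 9850 to 10400 in ES cells and at most 28.3 in MEF and 20.9 in NPC. Of 4 NPC markers, 3 were called higher in NPC than in ES cells. Sox2 was instead higher in ES cells (mean 12.05 against 11.07 in NPC), a difference under the minimum of 1. The deposited arrays differed in brightness, with 2% trimmed mean intensities of 232 on both MEF arrays, 119 to 128 in NPC and 111 to 153 in ES cells. In these bulk samples, fewer cells of a type and less RNA per cell cannot be told apart.

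All 12 ligands called between MEF and ES cells were higher in MEF. Of the ligands called between MEF and NPC, all but Ccl25 were higher in MEF. Against ES cells, 13 of the 45 genes were called (28.9%), 13 higher and 0 lower in MEF, where 25% of all genes were called, 12.2% higher and 12.8% lower. Without a minimum difference, limma placed 18 genes higher and 2 lower at an adjusted p under 0.05. Of all 18193 genes it then placed 3843 higher and 4604 lower. Of the 31 ligands 12 were higher (38.7%), and of the 14 receptors 1 was higher (7.14%). The median log2 difference was 0.56 over the ligands and 0.036 over the receptors, against -0.042 over all genes. Against NPC, 15 genes were called (33.3%), 14 higher and 1 lower in MEF, where 18.5% of all genes were called, 10.5% higher and 7.95% lower. The median log2 difference from NPC was 0.68 over the ligands, 0.14 over the receptors and -0.011 over all genes. Between NPC and ES cells 5 of the 45 genes were called (11.1%), 1 higher and 4 lower in NPC, where 22.9% of all genes were called, 10% higher and 12.9% lower. The 3 comparisons share arrays, so their counts are not independent of each other.

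**Figure D1:**
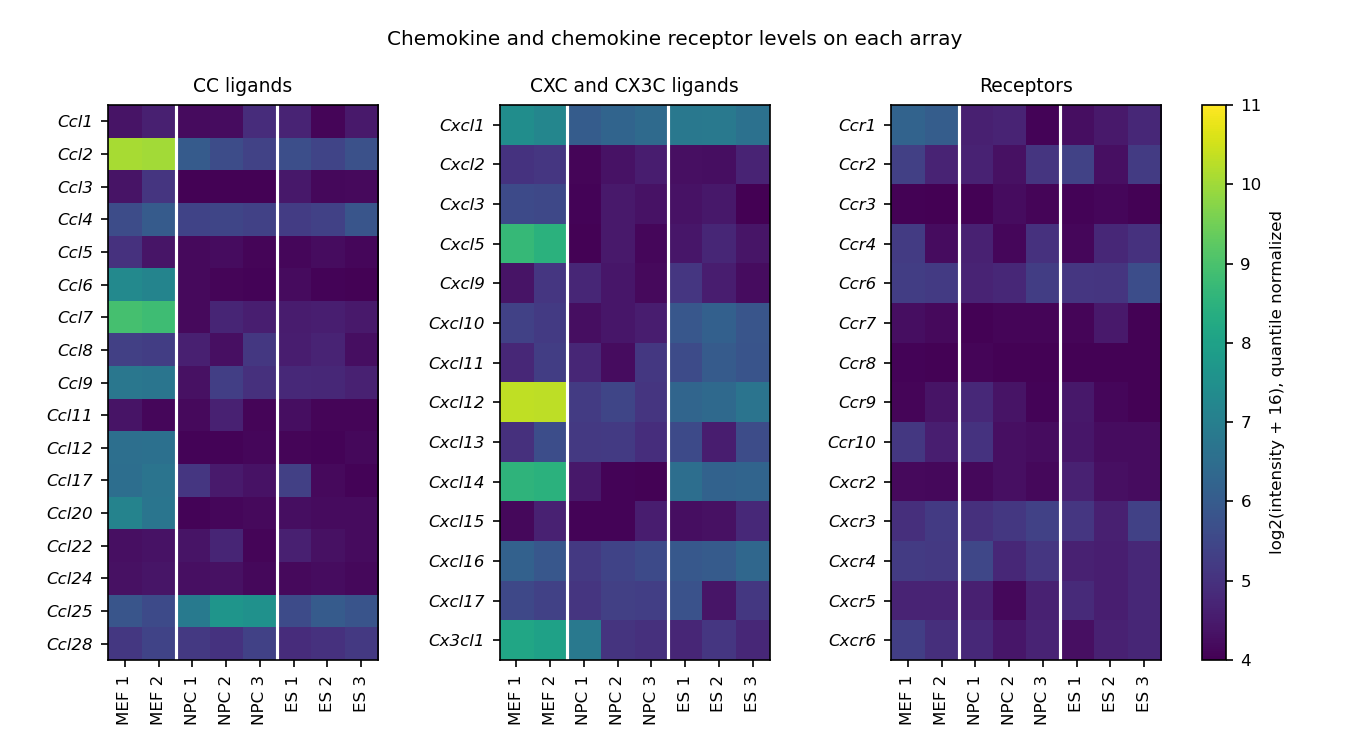
Normalised level, log2(intensity + 16), of each of the 45 genes (rows, ligands and receptors) on each array (columns, MEF, NPC and ES), shown by colour. The highest values are those of ligands in the MEF columns, and no receptor passes 6.22 on any array.

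Ccl2 and Ccl7, which attract monocytes through Ccr2, were the CC ligands that differed most from both other cell types. Ccl2 (probe set 1420380_at) was at 10.09 and 10.02 in MEF, against 6.02, 5.64 and 5.39 in NPC and 5.67, 5.43 and 5.74 in ES cells. In the deposited intensities these were 1700 and 1610 in MEF, 46.3, 27.8 and 23.2 in NPC and 35.2, 24.6 and 29.3 in ES cells. Every MEF array was far above every other array, while NPC and ES arrays overlapped. The log2 difference was 4.44 ± 0.20 (SE) from ES cells, 21.7-fold (limma adjusted p = 3.2e-07), and 4.37 ± 0.20 from NPC, 20.7-fold (limma adjusted p = 4.35e-07). Ccl7 (1421228_at) was at 8.93 and 8.82 in MEF, 4.18, 4.72 and 4.59 in NPC and 4.52, 4.58 and 4.49 in ES cells. Its pattern over the groups was that of Ccl2, with a 20.4-fold excess over ES cells (limma adjusted p = 3.24e-07) and a 20.8-fold excess over NPC (limma adjusted p = 3.82e-07). Ccl12, another Ccr2 ligand of the mouse, was at 6.55 and 6.59 in MEF and between 4.06 and 4.15 on all NPC and ES arrays. Only MEF arrays stood clear of the bottom of the scale for this gene, and the excess was 5.53-fold over ES cells (limma adjusted p = 7.28e-07).

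Ccl6 and Ccl9, both ligands of Ccr1, were higher in MEF as well. Ccl6 (1417266_at) was at 7.29 and 7.15 in MEF, 4.17, 4.09 and 4.07 in NPC and 4.21, 4.08 and 4.05 in ES cells. NPC and ES arrays lay together just above the lowest possible value, and MEF exceeded ES cells 8.59-fold (limma adjusted p = 3.81e-07). With a pseudocount of 1 its log2 difference from NPC was 5.93 on this set, whereas another Ccl6 probe set (1420249_s_at) then became the brightest and, at 2.49, was not called (limma adjusted p = 0.0586). Ccl9 (1417936_at) was at 6.77 and 6.72 in MEF, 4.31, 5.31 and 4.96 in NPC and 4.81, 4.77 and 4.65 in ES cells, which is 4.02-fold over ES cells (limma adjusted p = 0.000229) and 3.71-fold over NPC (limma adjusted p = 0.00047). NPC arrays spread by a whole log2 unit here, yet none reached the MEF arrays.

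Ccl20, the ligand of Ccr6, and Ccl17, a ligand of Ccr4, completed the CC ligands called higher in MEF. Ccl20 (1422029_at) was at 7.12 and 6.73 in MEF, 4.07, 4.12 and 4.19 in NPC and 4.27, 4.21 and 4.21 in ES cells. Both MEF arrays were well above the rest, 6.49-fold over ES cells (limma adjusted p = 1.52e-06) and 6.95-fold over NPC (limma adjusted p = 1.71e-06). Ccl17 (1419413_at) was at 6.53 and 6.68 in MEF, 5.10, 4.51 and 4.33 in NPC and 5.32, 4.18 and 4.08 in ES cells. The first NPC and the first ES array were above the others of their groups, and the excess of MEF over ES cells was 4.22-fold with a wider error (log2 2.08 ± 0.38 SE, limma adjusted p = 0.0015). Over NPC it was 3.89-fold (limma adjusted p = 0.00284), and that call was lost with a pseudocount of 64 (log2 difference 0.99).

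Cxcl12 had the largest MEF excess over NPC of the 45 genes, and it also separated NPC from ES cells. Cxcl12 (1448823_at) was at 10.32 and 10.31 in MEF, against 5.23, 5.46 and 5.09 in NPC and 6.29, 6.40 and 6.68 in ES cells. In the deposited intensities it was at 2010 and 1980 in MEF, 20.7, 23.1 and 15.9 in NPC and 62.1, 60.8 and 63.0 in ES cells. No groups overlapped: MEF were highest and NPC lowest. MEF exceeded NPC 33.3-fold (log2 5.06 ± 0.17 SE, limma adjusted p = 6.51e-08) and ES cells 14.5-fold (limma adjusted p = 2.81e-07). NPC were 2.3-fold lower than ES cells (log2 difference -1.20 ± 0.15 SE, limma adjusted p = 0.000153). That NPC call was lost when the pseudocount was 64 (-0.66) or the gene's probe sets were averaged (-0.49).

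Cxcl14, a chemokine found in epithelia and stroma, had the same order of groups. Its probe set (1418457_at) read 8.54 and 8.48 in MEF, 4.46, 4.06 and 4.03 in NPC and 6.54, 6.19 and 6.25 in ES cells. ES arrays lay between the other groups with no overlap. NPC were 4.42-fold lower than ES cells (log2 difference -2.14 ± 0.18 SE, limma adjusted p = 9.66e-06), and MEF exceeded ES cells 4.53-fold (limma adjusted p = 1.89e-05) and NPC 20-fold (limma adjusted p = 4.15e-07). The NPC call was lost with a pseudocount of 64 (-0.96). With a pseudocount of 1 the difference on this set was -4.68, whereas another Cxcl14 probe set (1418456_a_at) then became the brightest and, at -0.76, was not called.

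The CXC ligands that attract neutrophils through Cxcr2 were Cxcl5, Cxcl3, Cxcl1 and Cxcl2. Cxcl5 (1419728_at) was at 8.68 and 8.47 in MEF, 4.04, 4.49 and 4.13 in NPC and 4.42, 4.76 and 4.40 in ES cells. MEF stood apart, 16.5-fold over ES cells (limma adjusted p = 6.32e-07) and 20.5-fold over NPC (limma adjusted p = 5.49e-07). Cxcl3 (1438148_at) was at 5.57 and 5.52 in MEF, 4.07, 4.48 and 4.33 in NPC and 4.35, 4.46 and 4.02 in ES cells. Its excess was smaller, 2.41-fold over ES cells (limma adjusted p = 0.000348) and 2.38-fold over NPC (limma adjusted p = 0.000534), and both calls were lost with a pseudocount of 64 (log2 difference 0.49 in each). Cxcl2 was at 5.02 and 5.10 in MEF, 4.09, 4.34 and 4.55 in NPC and 4.28, 4.27 and 4.70 in ES cells. The MEF arrays were the highest, but the log2 differences of 0.65 and 0.74 stayed below the minimum of 1.

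Cxcl1 depended on which of its probe sets was read. The brightest over all arrays (1441855_x_at, of a type that can share sequence with other transcripts) was at 7.43 and 7.22 in MEF, 6.03, 6.25 and 6.43 in NPC and 6.81, 6.83 and 6.61 in ES cells. On it MEF were 2.13-fold above NPC (limma adjusted p = 0.000818) and, with a log2 difference of 0.58, not called against ES cells. The call against NPC was lost with a pseudocount of 64 (0.76), with array weights (0.98) and without the first NPC or the first MEF array (0.99 each). A further Cxcl1 probe set (1419209_at) read 8.32 and 8.28 in MEF, 4.51, 4.40 and 4.70 in NPC and 5.04, 5.12 and 5.20 in ES cells. With shared-sequence probe sets left out, this set gave a log2 difference of 3.18 between MEF and ES cells (limma adjusted p = 7.59e-07).

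Cx3cl1 (fractalkine), a membrane-anchored ligand of Cx3cr1, was higher in MEF on its brightest probe set. This set (1415803_at) read 8.15 and 8.0 in MEF, 6.83, 5.04 and 4.98 in NPC and 4.75, 5.10 and 4.77 in ES cells. The first NPC array lay far above the other NPC arrays, although below both MEF arrays. MEF exceeded ES cells 9.22-fold (limma adjusted p = 0.000504) and NPC 5.49-fold (log2 2.46 ± 0.49 SE, limma adjusted p = 0.00336). Of its 3 further probe sets, the log2 differences between MEF and ES cells were 1.81, 0.47 and -0.12.

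**Figure D2:**
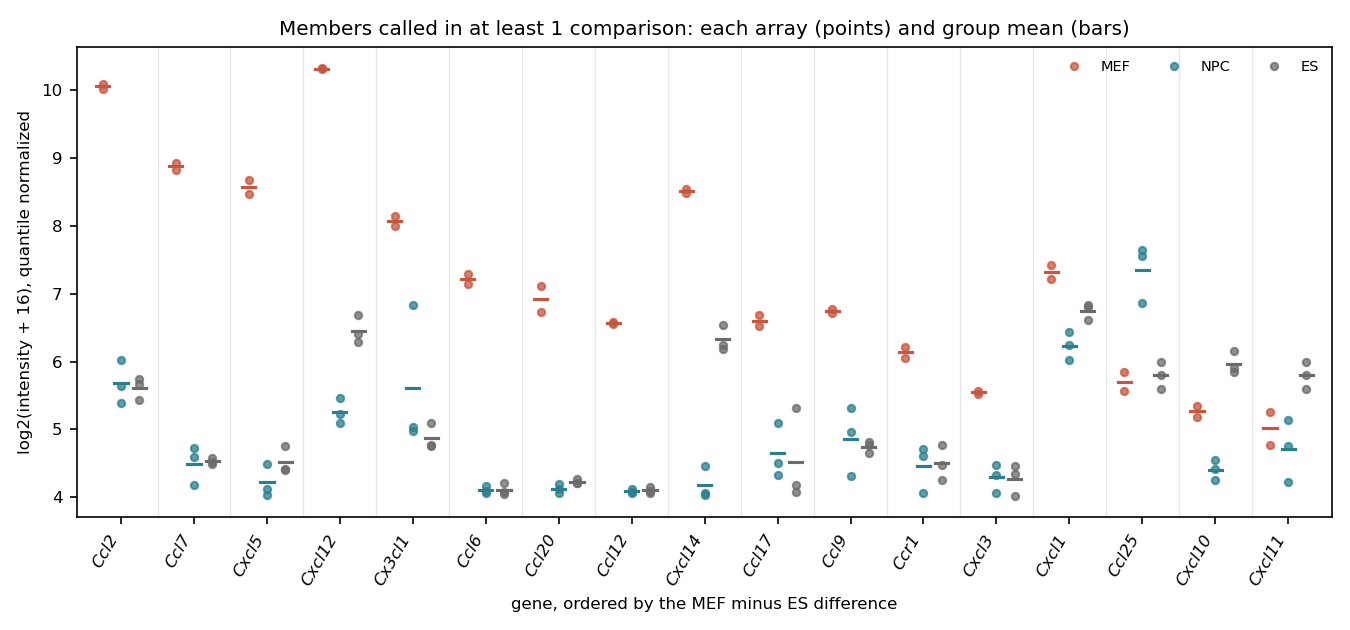
Normalised level, log2(intensity + 16), on each array for the 17 genes called in at least 1 comparison, with MEF left of NPC and NPC left of ES. Each point is 1 array and each bar a group mean: the MEF points of Cxcl12 lie at 10.32 and 10.31, and the NPC points of Ccl25 lie above its MEF and ES points.

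Ccl25 was the only gene of the family called higher in NPC. It (1418777_at) was at 5.85 and 5.56 in MEF, 6.87, 7.65 and 7.55 in NPC and 5.59, 6.0 and 5.81 in ES cells. All NPC arrays were above all MEF and ES arrays, which overlapped each other. NPC exceeded ES cells 2.94-fold (log2 1.55 ± 0.23 SE, limma adjusted p = 0.000414), and MEF were 3.14-fold lower than NPC (limma adjusted p = 0.000821). A second Ccl25 probe set gave log2 differences of 0.84 between NPC and ES cells and -0.72 between MEF and NPC.

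Cxcl10 and Cxcl11, interferon-inducible ligands of Cxcr3, were called lower in NPC against ES cells. Cxcl10 (1418930_at) was at 5.35 and 5.19 in MEF, 4.25, 4.42 and 4.55 in NPC and 5.90, 6.16 and 5.84 in ES cells. The 3 groups did not overlap, with ES cells highest. NPC were 2.94-fold lower than ES cells (limma adjusted p = 4.18e-05), a call lost with a pseudocount of 64 (log2 difference -0.68). Cxcl11 (1419697_at) was at 4.77 and 5.26 in MEF, 4.76, 4.22 and 5.14 in NPC and 5.59, 6.0 and 5.81 in ES cells. ES arrays were again the highest, and NPC were 2.14-fold lower (limma adjusted p = 0.00612). The Cxcl11 call was lost with a pseudocount of 64 (-0.48), with the mean of probe sets (-0.68), with array weights (-0.95), and without the second ES array (-1) or the second NPC array (-0.85). Cxcl9, the other Cxcr3 ligand, was not called, with a log2 difference of -0.18 ± 0.28 (SE) between NPC and ES cells.

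**Figure D3:**
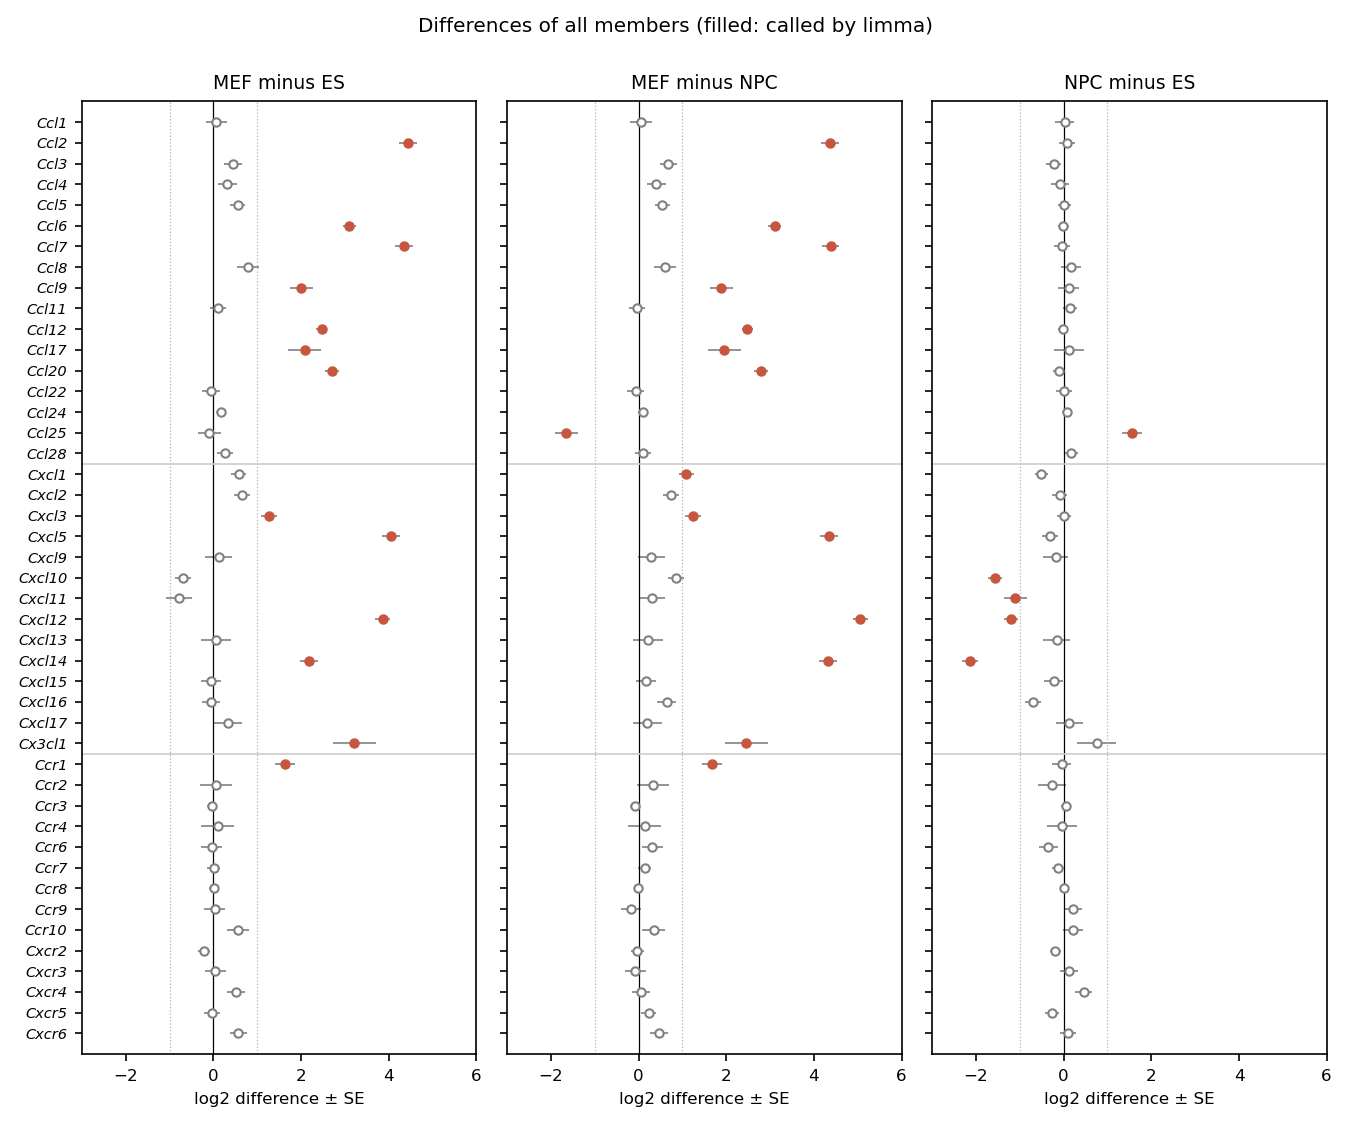
Log2 difference of group means with its limma standard error for the chemokine and receptor genes in each of the 3 comparisons, with called genes marked. The called differences of ligands between MEF and the other groups run from 1.09 to 5.06, apart from Ccl25 at -1.65 against NPC.

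Of the 14 receptors, Ccr1 alone was called. Ccr1, a receptor of myeloid cells for Ccl6 and Ccl9, was at 6.22 and 6.06 in MEF, 4.61, 4.71 and 4.06 in NPC and 4.26, 4.48 and 4.77 in ES cells on 1419609_at. MEF arrays were above all others, 3.11-fold over ES cells (limma adjusted p = 0.00035) and 3.21-fold over NPC (limma adjusted p = 0.000413). Its second probe set showed no such excess (log2 differences of -0.12 and -0.18), and both calls were lost with the mean of the probe sets (0.76 and 0.75) and with a pseudocount of 64 (0.75 and 0.76). Cxcr4, the receptor of Cxcl12, was at 5.23 and 5.17 in MEF, 5.50, 4.79 and 5.11 in NPC and 4.64, 4.60 and 4.78 in ES cells. All MEF and NPC arrays were above the ES arrays, but the lowest NPC array only just (4.79 against 4.78). Group means of MEF and NPC exceeded that of ES cells by 0.52 ± 0.21 and 0.46 ± 0.19 (log2, SE). These differences missed the threshold (limma adjusted p = 0.0731 and 0.0756).

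None of the other 13 receptors among the 45 genes was called in any comparison. Ccr2, the receptor of Ccl2, Ccl7 and Ccl12, was at 5.33 and 4.71 in MEF, 4.67, 4.32 and 5.08 in NPC and 5.39, 4.28 and 5.21 in ES cells, so that all 3 groups overlapped. Cxcr2, the receptor of Cxcl1, Cxcl2, Cxcl3 and Cxcl5, stayed between 4.14 and 4.63. Its log2 difference between MEF and ES cells was -0.21 ± 0.14 (SE). For Ccr6, the receptor of Ccl20, that difference was -0.039 ± 0.24. Ccr9, the receptor of Ccl25, differed by 0.21 ± 0.20 between NPC and ES cells, with overlapping arrays. Cxcr3 differed by 0.12 ± 0.21 between them, and Ccr4, the receptor of Ccl17, by 0.10 ± 0.38 between MEF and ES cells. On a scale whose dimmest values hold background, these intervals describe the probe sets and do not show that receptor mRNA is equal or absent.

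The 28 genes not called in any comparison were 15 ligands and 13 receptors, and none passed 6.35 on any array. The ligands were Ccl1, Ccl3, Ccl4, Ccl5, Ccl8, Ccl11, Ccl22, Ccl24, Ccl28, Cxcl2, Cxcl9, Cxcl13, Cxcl15, Cxcl16 and Cxcl17. The receptors were Ccr2, Ccr3, Ccr4, Ccr6, Ccr7, Ccr8, Ccr9, Ccr10 and Cxcr2 to Cxcr6. Among them Cxcl16, a membrane-bound ligand of Cxcr6, was at 6.17 and 5.89 in MEF, 5.17, 5.42 and 5.58 in NPC and 5.92, 6.0 and 6.35 in ES cells. NPC arrays were the lowest, with a log2 difference of -0.70 from ES cells that was under the minimum of 1. Ccl8, a ligand of Ccr8 in the mouse, differed by 0.78 ± 0.25 (SE) between MEF and ES cells, and Ccl5, an inflammatory CC ligand, by 0.56 ± 0.17. Ccl3 differed by 0.68 ± 0.20 between MEF and NPC. Ccl11 and Ccl22 stayed between 4.09 and 4.72 on all arrays.

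Other probe sets of the same genes were read as a check on the choice of the brightest. The 45 genes have 72 probe sets, and 28 genes have 1. Of the 14 genes higher in MEF than in ES cells or NPC, 7 have further probe sets, 11 in all. Of these, 7 were at least 1 log2 unit higher in MEF than in both other groups. The other 4 belong to Ccr1 (1), Cx3cl1 (2) and Cxcl12 (1).

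**Figure D4:**
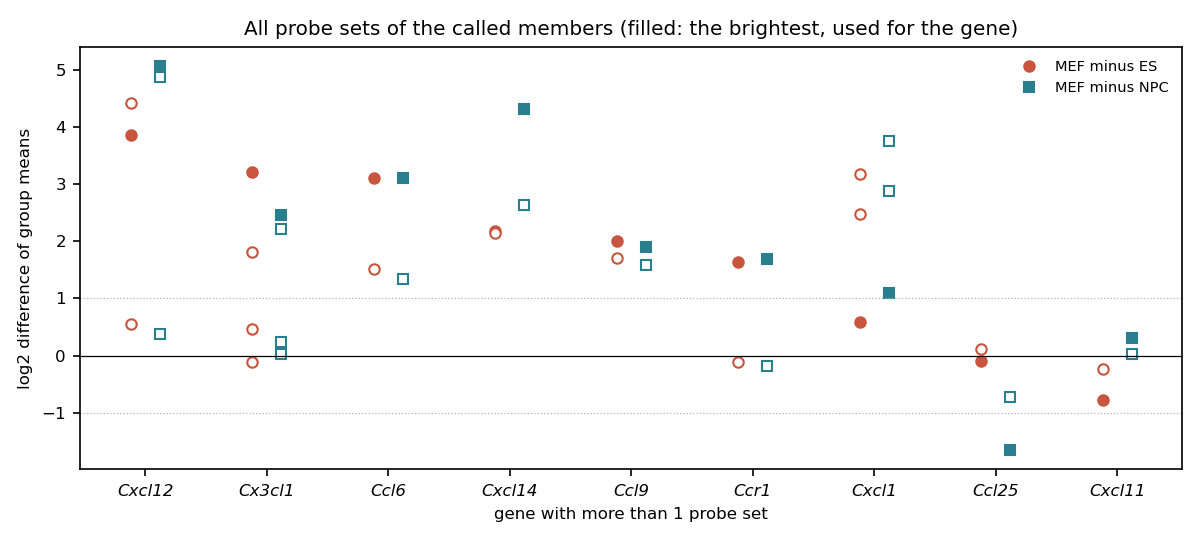
Log2 difference of MEF from ES cells (circles) and from NPC (squares) on each probe set of the called genes with more than 1 probe set, filled for the brightest set and open for the others. Against ES cells, further sets of Cxcl1 lie at 3.18 and 2.47, above the brightest at 0.58, while the second Ccr1 set lies at -0.12.

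Many chemokine genes lie in clusters, and not every gene of a cluster was called. In RefSeq order, Ccl2, Ccl7, Ccl11, Ccl12, Ccl8 and Ccl1 are 6 neighbouring genes, of which Ccl2, Ccl7 and Ccl12 were called higher in MEF. Ccl11, between Ccl7 and Ccl12, differed by 0.10 ± 0.18 (log2, SE) from ES cells. In the run Ccl5, Ccl9, Ccl6, Ccl3 and Ccl4, Ccl9 and Ccl6 were called. The CXC run holds Cxcl5, Ppbp, Pf4, Cxcl3, Cxcl15, Cxcl1 and Cxcl2, in which Cxcl15 differed by -0.059 ± 0.23 from ES cells. Cx3cl1 and Ccl17, both higher in MEF, neighbour Ccl22, which differed by -0.05 ± 0.20. Ccr1 lies in a run with Ccr3, Ccr2 and Cxcr6, which were not called.

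**Figure D5:**
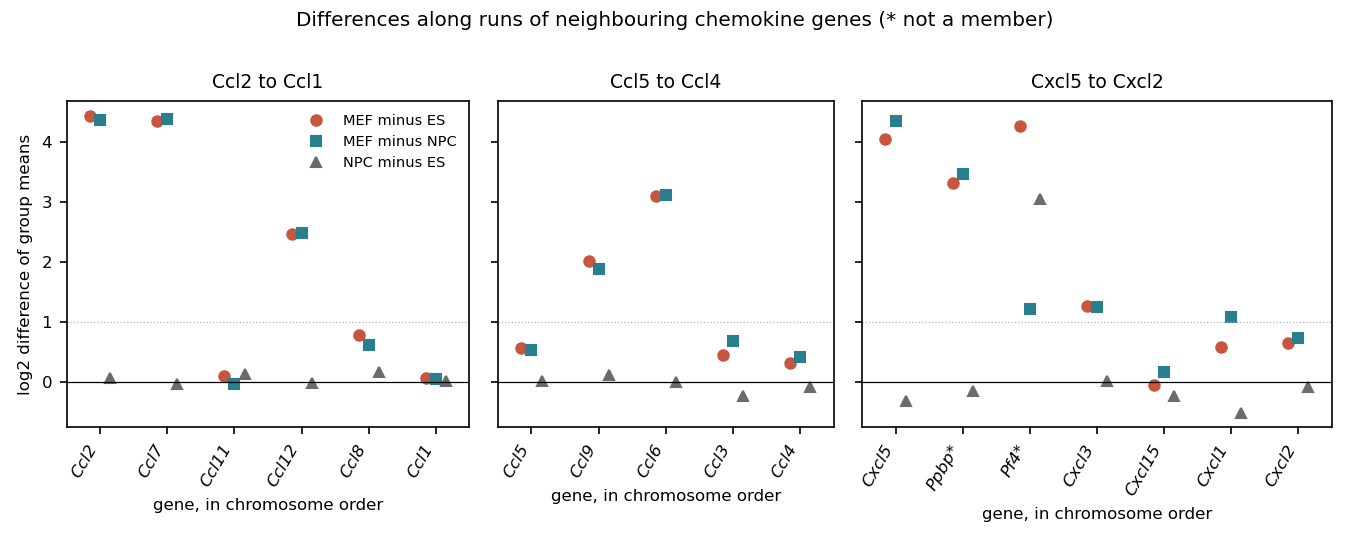
Log2 differences of group means along 3 runs of neighbouring chemokine genes, in chromosome order, for MEF minus ES, MEF minus NPC and NPC minus ES. Ccl2 and Ccl7 lie above 4 and the adjacent Ccl11 near 0. The dotted line marks a difference of 1.

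Promoter sequences were looked up because chemokine ligands are textbook NF-kappaB targets. RefSeq promoters (GRCm38.p6) matched 32 of the 45 genes, and the 250 bases before the start were searched on both strands for 3 motifs. These were the kappaB consensus GGGRNNYYCC, the AP-1 site TGANTCA and the core of the interferon-stimulated element (GAAA, 2 bases of any kind, GAAA). Here R is A or G, Y is C or T and N is any base. The kappaB consensus was in 10 of 32 promoters of these genes (31.2%), in 5 of 11 matched genes of the 14 higher in MEF (45.5%), in 4 of 19 of those not called (21.1%) and in 8.23% of 27025 genes. Ccl2, Ccl7 and Cxcl5 were the unmatched genes higher in MEF. The 10 genes with a kappaB match include the receptors Ccr1, Ccr3 and Ccr6. Cxcl1, Cxcl2 and Cxcl3 lie in 1 run and hold the same matched letters, so their matches are not independent. Cxcl1 counts as higher in MEF through its call against NPC only. TGANTCA was in 12.5% of the 32 and in 7.82% of all genes, and the interferon element core in 6.25% of the 32 and in 3.46% of all. The promoters of 4 genes are printed, with motif matches in capitals and overlapping matches merged: 2 of ligands higher in MEF with a kappaB match (Cxcl1 and Ccl20), that of Cxcl10, which holds all 3 motifs and was lower in NPC, and that of Cxcl12, which holds none of them in this window. Cxcl1 lies at chr5:90890995-90891244 on the plus strand, Ccl20 at chr1:83116516-83116765 on the plus strand, Cxcl10 at chr5:92348890-92349139 on the minus strand and Cxcl12 at chr6:117168285-117168534 on the plus strand.
Cxcl1: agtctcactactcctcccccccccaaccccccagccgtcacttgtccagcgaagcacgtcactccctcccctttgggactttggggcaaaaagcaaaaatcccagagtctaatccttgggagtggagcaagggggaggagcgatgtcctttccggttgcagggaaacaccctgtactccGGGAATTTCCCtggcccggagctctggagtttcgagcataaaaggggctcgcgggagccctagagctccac
Ccl20: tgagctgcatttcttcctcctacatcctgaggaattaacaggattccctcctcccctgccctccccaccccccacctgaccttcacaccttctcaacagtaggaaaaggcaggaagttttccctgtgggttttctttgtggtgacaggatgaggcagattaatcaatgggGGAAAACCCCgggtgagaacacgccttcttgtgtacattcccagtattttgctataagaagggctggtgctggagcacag
Cxcl10: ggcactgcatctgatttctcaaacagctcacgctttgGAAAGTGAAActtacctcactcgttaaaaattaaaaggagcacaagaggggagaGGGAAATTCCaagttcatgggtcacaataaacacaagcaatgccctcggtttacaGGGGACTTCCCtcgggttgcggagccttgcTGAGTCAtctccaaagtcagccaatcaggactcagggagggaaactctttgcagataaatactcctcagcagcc
Cxcl12: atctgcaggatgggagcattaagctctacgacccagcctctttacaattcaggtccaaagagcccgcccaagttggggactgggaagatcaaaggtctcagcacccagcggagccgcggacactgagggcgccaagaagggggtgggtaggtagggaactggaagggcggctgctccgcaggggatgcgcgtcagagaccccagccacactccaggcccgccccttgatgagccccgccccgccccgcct
The capitals begin 71 bases before the start in Cxcl1 and 80 bases before it in Ccl20. In Cxcl10 they mark the interferon element core at 213, kappaB at 159 and 104 and TGANTCA at 74 bases before the start. A match describes letters in the window and not a bound site.

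Pathway genes outside the family were counted from lists. Of 12 other chemokine genes and receptors, 4 were higher in MEF than in ES cells and 0 lower, against 12.2% and 12.8% of all genes. Pf4, a platelet chemokine, was at 9.14 and 9.22 in MEF, 6.60, 8.77 and 8.51 in NPC and 4.78, 5.00 and 4.94 in ES cells, with no overlap of the groups and 1 NPC array well below the others. NPC exceeded ES cells 8.31-fold (limma adjusted p = 0.000558) and MEF exceeded them 19.3-fold (limma adjusted p = 0.000139). Between MEF and NPC, Pf4 was not called (log2 difference 1.22 ± 0.53 SE, limma adjusted p = 0.105). Ppbp, another platelet chemokine gene beside it, was 9.89-fold higher in MEF than in ES cells (limma adjusted p = 1.59e-06). Ackr3, a scavenging receptor for Cxcl12, was at 7.79 and 7.56 in MEF, 6.01, 5.23 and 5.10 in NPC and 6.02, 5.67 and 5.72 in ES cells, 3.65-fold over ES cells (limma adjusted p = 0.000412). Cx3cr1, the receptor of Cx3cl1, was the fourth, at 5.59 and 5.55 in MEF, 4.60, 4.27 and 4.65 in NPC and 4.13, 4.95 and 4.29 in ES cells. All MEF arrays were above the others, 2.17-fold over ES cells (limma adjusted p = 0.00477) and 2.09-fold over NPC (limma adjusted p = 0.00778).

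Of 24 measured genes of receptor signalling and turnover, 6 were higher and 3 lower in MEF than in ES cells. Of all genes, 12.2% were higher and 12.8% lower. When the deposited scaling was kept, 14 of the 24 were called, and calls over all genes rose from 4554 to 5472. Of 33 measured NF-kappaB and inflammatory cytokine genes, 15 were higher and 2 lower in MEF than in ES cells. Their median log2 difference was 0.71 against -0.042 over all genes. Against NPC, 17 were higher in MEF and 0 lower, where 10.5% of all genes were higher and 7.95% lower. Il6, which encodes an inflammatory cytokine, was at 7.20 and 7.24 in MEF, 4.21, 4.05 and 4.04 in NPC and 4.76, 5.18 and 4.51 in ES cells. Ptgs2, the inducible cyclooxygenase, was at 11.32 and 11.45 in MEF, 4.56, 4.68 and 4.02 in NPC and 6.0, 6.0 and 5.65 in ES cells. Both were called in MEF against each other group. Icam1, an adhesion molecule, was instead 7.94-fold lower in MEF than in ES cells (limma adjusted p = 1.59e-06). Of 12 measured interferon signalling genes, 3 were called lower in NPC against ES cells and 0 higher, where 12.9% of all genes were lower and 10% higher. Among the 3 was Irf1, a transcription factor (log2 difference -2.16, limma adjusted p = 2.6e-05). Ifit1, Ifit3 and Rsad2 differed by -0.27, 0.088 and -0.16 and were not called. In MEF, 4 genes of the list were higher than in ES cells and 3 higher than in NPC, with 0 lower in each comparison. Of all genes, 12.2% were higher and 12.8% lower in MEF against ES cells, and 10.5% and 7.95% against NPC. Over the same alternatives, 2 to 5 of the list were higher in MEF than in ES cells and 1 to 7 higher than in NPC. In each of these comparisons, 0 to 1 were lower.

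Most markers of macrophages and other blood cells were also higher in MEF. Of 16 such genes, 11 were higher and 2 lower in MEF than in ES cells, against 12.2% and 12.8% of all genes. In MEF against NPC, 13 were higher and 0 lower, against 10.5% and 7.95% of all genes. The 2 lower in MEF than in ES cells were highest in ES cells: Cd68 (mean 8.13, against 6.82 in MEF) and Laptm5 (8.33, against 6.77). Csf1r was not called, with log2 differences of 0.71 from ES cells and 0.81 from NPC. Summed normalised intensity of the 16 genes was 1890 to 1910 in MEF, 139 to 158 in NPC and 684 to 746 in ES cells. Lyz2, the lysozyme of myeloid cells, was at 8.94 and 9.03 in MEF, 4.24, 5.13 and 5.02 in NPC and 5.16, 4.87 and 4.97 in ES cells. C1qb, a complement gene of macrophages, was at 7.86 and 7.79 in MEF and at most at 4.64 on the other arrays. Ptprc, the pan-leukocyte gene, was at 6.37 and 6.05 in MEF and at most at 4.53 elsewhere, while Itgam (4.78 and 4.86 in MEF) and Aif1 (4.99 and 4.68 in MEF) were low throughout. Of 4 neutrophil markers 3 were higher in MEF than in ES cells, and of 4 measured lymphocyte markers 0 were. Their part in the chemokine results was not tested.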

How the data were processed

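Probe set intensity of 8 Affymetrix Mouse Genome 430 2.0 arrays, on a linear scale, was deposited by the authors. GCOS 1.4 is named per the submitters' processing notes, and its algorithm and scaling are not given in the sources used here. The 64 control probe sets were left out of 45101. Of the other 45037, 34945 were annotated to 1 gene, 932 to several and 9160 to none. Of the 34945, 34754 matched RefSeq by Entrez ID, which changed 0 symbols. The brightest probe set stood for each of 18193 genes, as log2(intensity + 16) after quantile normalization.

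The 3 comparisons came from a single limma 3.58.1 model over 8 arrays (R 4.3.3, trended variance), and p-values were adjusted by Benjamini-Hochberg over all genes. A call needed both an adjusted p under 0.05 and a minimum absolute log2 difference of 1. The rule gave by array every called gene, set ligands beside their receptors and took other pathway genes from lists. The number of arrays limits the precision. Members and lists were chosen with earlier results of these data known. Scalings, pseudocounts of 1 and 64, probe set choices, filters, fits, thresholds and leaving out each array were tried as alternatives. Both pseudocounts with each gene kept on its probe set were added after seeing the data.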

Additional observations from a re-analysis of the deposited data

How the results depend on the processing

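Under 25 alternatives, 19 of 33 called results for single chemokine or receptor genes held in every one that measured the gene (Ccl12 and Cxcl3, 4 of the 33 results, are absent when the dimmest genes are left out), 11 were lost in at least 1 alternative other than a changed threshold, and 0 reversed direction. A further 14 results below the threshold passed it in at least 1 alternative. For NPC against ES, the 5 calls became 1 with a pseudocount of 64, where no chemokine or receptor gene changed its brightest probe set. They became 3 with the mean of probe sets and 1 with a minimum difference of 2. For MEF against ES, the 13 calls became 20 with no minimum difference, and for MEF against NPC the 15 became 9 with a minimum difference of 2. Leaving out each array gave 4 to 5, 13 to 13 and 14 to 15 calls in the 3 comparisons.

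Over all genes, calls for NPC against ES were 4173, and 2638 with a pseudocount of 64, 8530 with no minimum difference and 1509 with a minimum of 2. For MEF against ES they were 4554, and 2948, 8447 and 1560. For MEF against NPC they were 3359, and 2110, 7145 and 1247, and 5101 with the deposited scaling. With a pseudocount of 64 on the same probe sets, chosen after seeing the data, the 3 counts were 2626, 2937 and 2103. Leaving out each array gave 4092 to 4404, 4440 to 4604 and 3139 to 3576. With the deposited scaling the median of all genes shifted by 0.32 between MEF and ES and by 0.43 between MEF and NPC, and the chemokine median was 0.63 in each. The share of all called genes that were higher in MEF than in ES cells was 48.9%, and 65.1% with median centring and 79.4% with the deposited scaling. Against NPC it was 56.9%, 74.2% and 87.6%. For the chemokine genes it was 100% against ES cells under each of these, and 93.3%, 93.3% and 94.4% against NPC. The causes were not tested.

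Same-numbered arrays showed no sign of pairing, since their deviations correlated between -0.02 and 0.023. Such values cannot show that these arrays were handled apart. A replicate block left 5, 13 and 15 calls. Probe sets near the lowest value give only a bound on how low a gene is, and 2 MEF arrays limit every MEF comparison.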

Other observations

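Chemokine probe sets outside the name rule gave a further pattern. A probe set annotated to Ccl27a and its near-identical copies (1419188_s_at) was at 5.54 and 5.70 in MEF, 4.88, 4.73 and 4.77 in NPC and 6.97, 6.92 and 6.88 in ES cells. A second one (1430375_a_at) was at 5.23 and 5.14 in MEF, 4.12, 4.72 and 4.61 in NPC and 6.53, 6.40 and 6.73 in ES cells. Another set, annotated to Ccl27a alone (1434962_x_at, of a type that can share sequence), was at 5.41 and 5.09 in MEF. It was at 4.5, 4.06 and 4.06 in NPC and 6.27, 6.17 and 6.34 in ES cells. On each of these sets, ES arrays were highest and NPC arrays lowest, with no overlap of the groups. Ccl27 is a skin chemokine that attracts T cells through Ccr10, and its copies cannot be told apart on the sets annotated to several genes. The probe set shared by the Ccl21 genes, lymph node chemokines, stayed between 4.08 and 4.17 on all arrays, and Ccr1l1, a relative of Ccr1, between 4.13 and 4.91.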
